A study of Mus musculus with 8 samples.

Results

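Many mouse lncRNAs carry the symbol of a protein coding gene followed by the ending os, for opposite strand, since they are transcribed from the other strand of that gene or next to it. The lncRNAs described here were the genes of biotype antisense, lincRNA or processed_transcript whose symbol is such a name, with or without a final number. The lncRNAs of the Hox clusters and *Hand2os1*, *Evx1os*, *Igf2os* and *Dnm3os* were set aside. No measured value entered this rule, though earlier results of these data were known when it was set. It found 279 genes of the 55487 in the files, among 9399 lncRNAs of the 3 biotypes. Each was compared with the gene left after the ending is removed, called its partner. RNA came from J1 mouse ESCs, a line of the 129S4/SvJae strain, that were differentiated toward cardiomyocytes through embryoid bodies. The ESC group (day 0) was grown with LIF and received no ascorbic acid, whereas the MES group (day 4, mesoderm), the CP group (day 6, cardiac progenitor) and the CM group (day 10, cardiomyocyte) received 1 mM ascorbic acid. Each stage had 2 biological replicates, all of the same line, and the RNA was of the whole culture with no sorting of cells.

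Promoters of protein coding genes are often transcribed in both directions, and an RNA that starts near the promoter and runs away from the gene is called divergent. Other antisense RNAs start inside the gene or beyond its end and run across its exons or introns. Some opposite-strand lncRNAs act on the gene they are named after, some act elsewhere, and for most no role is known, so that the name records a position and not a function.

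All 277 lncRNAs with a partner in the files lay on the strand opposite to it, and all 236 partners were protein coding. The partners of *Proscos* and *Ict1os* were found under the current symbols *Plpbp* and *Mrpl58*, and for *Snhg7os* and *Etos1* no partner was found in the files. In 87 pairs the 5′ ends of the gene models were at most 2000 bases apart, with a median of 449 bases. These pairs are called head to head here, whether or not the gene bodies overlap. In another 175 pairs the gene bodies overlapped with 5′ ends farther apart, and 15 pairs lay apart. Gene bodies overlapped in 234 pairs in all, so many of the head-to-head pairs overlap too and are not purely divergent. Exons of the lncRNA and the partner overlapped in 155 pairs. A partner could have several such lncRNAs, as had 31 partners, with up to 5 for the transcription factor gene *Sox5*.

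The sequences around the start of 5 head-to-head lncRNAs are shown because they hold the starts of both genes, so that a single window serves both genes of the pair. Each window runs from 250 bases before to 50 bases after the start of the lncRNA in RefSeq, on GRCm38.p6 and on the strand of the lncRNA, and the capitals mark the bases between the RefSeq starts of the lncRNA and of its partner. *Lhx1os* (chr11:84525410-84525709, plus strand), *Ptgs2os* (chr1:150099825-150100124, minus strand) and *Etaa1os* (chr11:17953720-17954019, plus strand) were called in the same direction as their partners in a comparison given below. *B9d1os* (chr11:61505037-61505336, minus strand) and *Map2k3os* (chr11:60931818-60932117, minus strand) fell by a larger fold than theirs in MES.
Lhx1os: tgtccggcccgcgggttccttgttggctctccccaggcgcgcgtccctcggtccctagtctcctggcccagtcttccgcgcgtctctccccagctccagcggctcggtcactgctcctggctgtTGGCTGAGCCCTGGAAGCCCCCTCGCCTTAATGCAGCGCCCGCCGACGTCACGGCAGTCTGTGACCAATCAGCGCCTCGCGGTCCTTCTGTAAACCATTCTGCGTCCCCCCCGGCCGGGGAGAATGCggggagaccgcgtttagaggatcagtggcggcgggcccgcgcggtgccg
Ptgs2os: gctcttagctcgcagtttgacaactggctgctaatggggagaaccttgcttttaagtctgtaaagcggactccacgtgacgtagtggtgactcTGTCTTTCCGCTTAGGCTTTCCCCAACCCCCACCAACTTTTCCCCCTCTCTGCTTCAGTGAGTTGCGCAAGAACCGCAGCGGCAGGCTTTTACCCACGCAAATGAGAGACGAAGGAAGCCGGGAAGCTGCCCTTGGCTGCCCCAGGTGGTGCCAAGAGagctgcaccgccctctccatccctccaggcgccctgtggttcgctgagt
Etaa1os: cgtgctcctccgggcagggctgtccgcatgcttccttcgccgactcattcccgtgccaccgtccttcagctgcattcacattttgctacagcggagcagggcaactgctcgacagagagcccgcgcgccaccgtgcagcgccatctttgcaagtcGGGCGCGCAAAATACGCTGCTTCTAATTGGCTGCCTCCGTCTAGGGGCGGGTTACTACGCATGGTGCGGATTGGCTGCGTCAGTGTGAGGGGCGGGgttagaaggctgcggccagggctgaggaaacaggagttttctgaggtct
B9d1os: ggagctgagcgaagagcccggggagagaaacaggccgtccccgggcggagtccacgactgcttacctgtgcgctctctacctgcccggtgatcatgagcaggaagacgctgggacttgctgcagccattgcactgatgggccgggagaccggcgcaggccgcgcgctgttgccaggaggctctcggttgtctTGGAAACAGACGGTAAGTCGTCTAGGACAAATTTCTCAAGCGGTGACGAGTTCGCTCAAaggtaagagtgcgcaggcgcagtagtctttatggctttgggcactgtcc
Map2k3os: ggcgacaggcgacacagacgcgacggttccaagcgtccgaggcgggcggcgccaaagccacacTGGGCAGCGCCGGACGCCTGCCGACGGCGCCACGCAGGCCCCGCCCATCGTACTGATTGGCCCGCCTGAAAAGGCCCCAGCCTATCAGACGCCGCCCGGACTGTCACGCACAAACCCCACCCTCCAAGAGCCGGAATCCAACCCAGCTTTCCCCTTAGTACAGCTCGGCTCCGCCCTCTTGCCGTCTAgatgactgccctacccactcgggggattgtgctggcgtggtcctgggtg
In capitals are 127, 158, 96, 59 and 188 bases, in the order printed. The letters GGGCGG, the core of the site of Sp1 family factors, were found on either strand in the windows of *Ptgs2os*, *Etaa1os*, *B9d1os* and *Map2k3os*, and CCAAT in those of *Lhx1os*, *Etaa1os* and *Map2k3os*.

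RefSeq windows of 160 members were at hand. The 28 windows of head-to-head members whose expression could be tested had a median GC content of 63.67% and a median ratio of observed to expected CpG of 0.788, against 52.67% and 0.384 over all 32851 windows of the table. Searched on both strands, GGGCGG was present in 67.86% of these 28 windows, in 28.57% of the 14 windows of tested members with another overlap and in 35.66% of all windows. Over members tested or not, the shares were 48.28% of 58 head-to-head windows and 15.38% of 91 windows of other overlapping members. The letters were also more frequent in windows of tested members as a whole (55.81% of 43) than in those of members not tested (18.8% of 117). TATAAA was present in 3.57% of the 28 windows and in 13.62% of all. CCAAT was in 32.14% of the 28 against 37.41% of all, and CACGTG in 17.86% against 7.15%. The median CpG ratio of the 14 tested members with another overlap was 0.398. Over members tested or not it was 0.660 in head-to-head windows and 0.254 in those of other overlapping members.

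*Oip5os1*, also known as Cyrano, is a lncRNA with a site for the microRNA miR-7 that is known to pair with it beyond the seed and to bring about its decay. It is shown because it was the lncRNA with the most reads of all members. Below are the mature microRNA from RefSeq (chr7:78888295-78888317, plus strand, GRCm38.p6), with its seed, bases 2 to 8, in capitals, and the stretches of 30 bases that end with a site in the longest transcript of *Oip5os1*, which has 8300 bases in GENCODE M21. The capitals of the sites mark GTCTTCCA, the letters opposite the seed followed by an A.
mmu-miR-7a-5p: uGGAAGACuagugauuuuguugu
Oip5os1 site 1: gacttcaggttttttttttaatGTCTTCCA
Oip5os1 site 2: taagaacaacaaaatcaccaatGTCTTCCA
Site 1 ends at base 769 of the transcript and site 2 at base 2959. Outside the seed, a run of 13 bases of the microRNA, from base 11 to base 23, finds its complement in the stretch of site 2, whereas the longest such run in the stretch of site 1 is 3 bases. GTCTTCCA was present in the longest transcript of 17 of the 279 members (6.09%) and of 3.50% of all 9368 lncRNAs of the biotypes with a transcript. *Cdr1os* held 35 copies, the most of any, but was read with 7 counts at most in a library, and its partner *Cdr1* had no count.

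The libraries had 18046063 to 19728777 counts. The pluripotency markers summed to 2624 to 2653 TPM in ESC and to at most 166.9 TPM later, and the mesoderm markers were highest in MES, at 410.4 to 431 TPM. Cardiomyocyte markers summed to 753 and 1114 TPM in CP but 367 and 882 TPM in CM, so the CM libraries do not stand apart from CP by this sum. *Actc1* made up most of it in each of these libraries. Of the list, *Nppa* alone was higher in both CM libraries (7.02 and 5.71 TPM) than in both CP libraries (0.245 and 1.25 TPM). Other cells were present as well: blood markers summed to 3999 to 4037 TPM in CP and to 40.9 to 45.9 TPM in CM, and smooth muscle and fibroblast markers to 12069 and 8007 TPM in CM. The replicates differed more in CM, with a mean chi-square per gene of 33.2, than at the other stages, at 3.71 to 6.40. In such bulk libraries fewer cells that make an RNA and less of the RNA per cell cannot be told apart. P-values measure the spread between these cultures by 1 estimate per gene over all stages. The wider spread in CM is thus not modelled apart, and p-values and SE of comparisons with CM may understate it.

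The opposite-strand lncRNAs were scarce. Of the 279 members, 61 had no count in any library, 167 were detected with a read in both replicates of a stage, and 65 were read in all 8 libraries. TPM, the abundance relative to gene length and to the library, reached a stage mean of 1 in 88 members, of 5 in 33 and of 10 in 17. Members at 1 TPM or more numbered 44 at ESC, 54 at MES, 63 at CP and 70 at CM. Together the members took 0.0316% of the counts in the lowest library, an ESC replicate, and 0.0490% in the highest, a CM replicate. Their summed level was 467 and 486 TPM at ESC, 513 and 558 at MES, 488 and 544 at CP, and 631 and 661 at CM. *Oip5os1* and *Epb41l4aos* alone made up 32.7% to 47.0% of that sum.

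*Oip5os1* (ENSMUSG00000085438, chromosome 2 from 119594297 to 119607502, plus strand) stood at 61.9 and 68.2 TPM at ESC, 109.5 and 116 at MES, 111 and 115 at CP and 92.8 and 114 at CM. It was thus lowest in ESC and almost level afterwards, and no comparison reached a fold of 2. The highest fold was from ESC to MES, at 1.50-fold (log2 fold change 0.59 ± 0.08 SE, edgeR adjusted p = 0.000212). Its partner *Oip5*, a centromere protein gene whose 5′ end is 24172 bases away, was at 52.2 and 52.3 TPM at ESC, 48.0 and 51.9 at MES, 41.3 and 47.2 at CP and 30.5 and 30.1 at CM and fell from ESC to CM by 2.33-fold (log2 fold change -1.22 ± 0.13 SE, edgeR adjusted p = 1.62e-05). *Epb41l4aos* (ENSMUSG00000087590, chromosome 18 from 33794892 to 33795986, plus strand) was at 137 and 139 TPM at ESC, 132 and 144 at MES, 61.2 and 64.4 at CP and 144 and 102 at CM. It fell from ESC to CP, 2.83-fold (log2 fold change -1.50 ± 0.22 SE, edgeR adjusted p = 0.000171), and the CP libraries lay below all others. Its partner *Epb41l4a*, of the band 4.1 family that links membranes to the cytoskeleton, was at 42.5 and 43.6 TPM at ESC, 6.68 and 8.77 at MES, 6.60 and 6.94 at CP and 6.27 and 6.36 at CM and had fallen already in MES, by 6.46-fold (log2 fold change -2.69 ± 0.13 SE, edgeR adjusted p = 1.51e-07). Both lncRNAs lie apart from the partner, and both exceeded it at every stage.

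**Figure D1:**
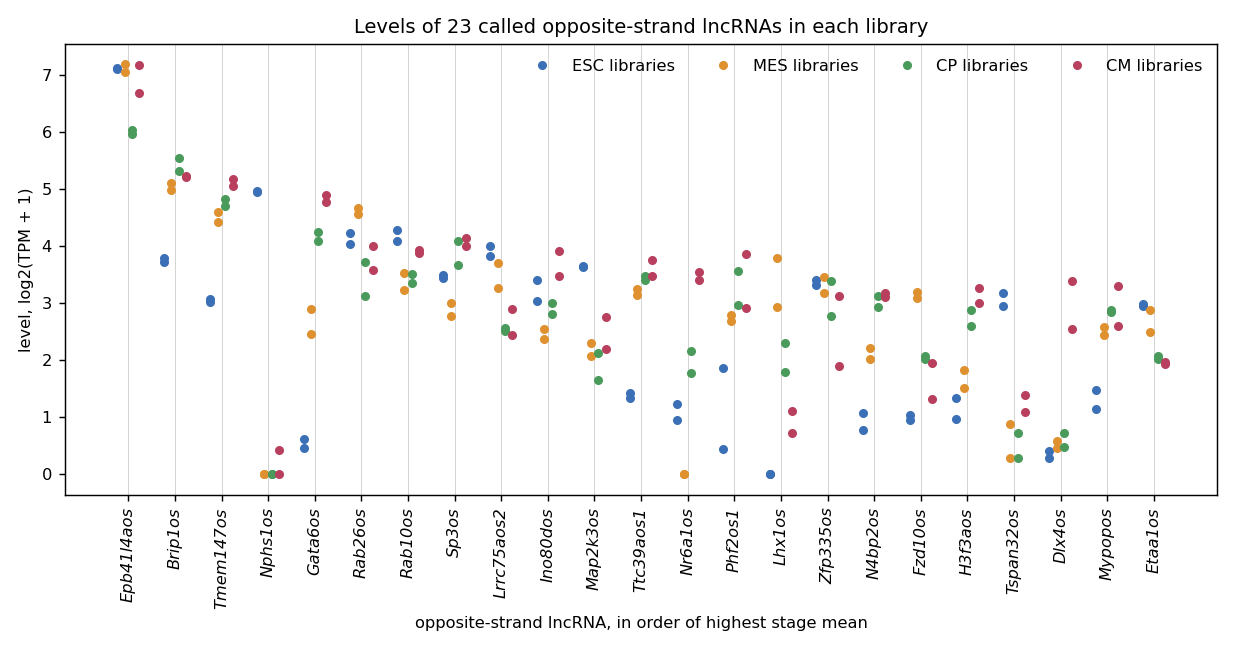
The plot of levels in each library shows log2(TPM + 1) on the vertical axis for 23 called opposite-strand lncRNAs with high stage means, in order of these means on the horizontal axis, with a point for each of the 8 libraries coloured by stage. *Nphs1os* is near 0 in every library after ESC, *Gata6os* climbs from ESC to CM, and the ESC points of *Lhx1os* lie at 0.

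Of the 279 members, 71 passed the filter on low counts and were tested, and 208 were not, of which 147 had some counts and a stage mean of at most 4.51 TPM (*Rsf1os1*). A member with reads at a single stage passes through that stage alone, so the counts below describe the 71 tested and not the 279. Calls required an adjusted p below 0.05 together with a change of more than 2-fold. By that rule 59 of the 71 were called in at least 1 of the 6 comparisons between stages (83.1%, against 64.0% of the 20071 genes tested and 75.7% of the 1340 other lncRNAs tested). Of these 59, 33 were called higher at the later stage only, 17 lower only and 9 in both directions, which is 46.5%, 23.9% and 12.7% of the members tested against 31.2%, 23.7% and 9.08% of all genes. Above ESC at each of MES, CP and CM were 16 members, and below ESC at each of them were 10, 22.5% and 14.1% against 15.4% and 10.9% of all genes.

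From ESC to MES, 18 members rose and 17 fell, 49.3% of those tested against 35.4% of all genes, of which 19.4% rose and 16.0% fell. From MES to CP, 8 rose and 6 fell, 19.7% against 15.4% (10.8% up and 4.65% down). From CP to CM, 5 rose and none fell, 7.04% against 10.8% (8.17% up and 2.65% down), and 8.43% of the other lncRNAs. Over the whole course from ESC to CM, 35 rose and 14 fell, 69.0% against 51.6%. The 35 that rose are 49.3% of the members against 29.8% of all genes, while the 14 that fell are 19.7% against 21.8%. For CP against ESC, 29 were higher and 17 lower (64.8% against 46.6%, of which 26.1% higher and 20.6% lower), and for CM against MES, 20 were higher and 7 lower (38.0% against 29.2%, of which 19.1% higher and 10.1% lower). These comparisons share libraries and are not independent of each other.

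The median log2 fold change of the tested members from ESC to CM was 1.10, against 0.11 over all genes and 0.45 over the other lncRNAs, of which 61.4% were called. With the 5 members that had no count at one of the stages placed at their bound, the median of the members was 1.03. When libraries were instead scaled by their totals, the median of all genes shifted by 0.22 in this comparison, and changes are given relative to TMM. Folds with a counting interval, and folds given as at least, are the exception. They are ratios of counts over library totals, printed beside the adjusted p of edgeR, and are not on the scale of the edgeR folds of the partners. Folds given as at least also take the count of the higher stage as exact. In the first step from ESC to MES the members' median was 0.30, against 0.00 over all genes, and it was 0.73 in the 40 head-to-head members tested and -0.87 in the 28 with another overlap. CM was the stage of the highest mean for 35 of the 71 tested members (49.3%), for 44.1% of the other lncRNAs and for 38.6% of all genes. The count for the last step rested on single libraries, since 5 calls became 2 without CP replicate 1, 1 without CP replicate 2 and 10 without CM replicate 2. That from MES to CP went from 14 to 8 without MES replicate 1 and to 8 without CP replicate 2.

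**Figure D2:**
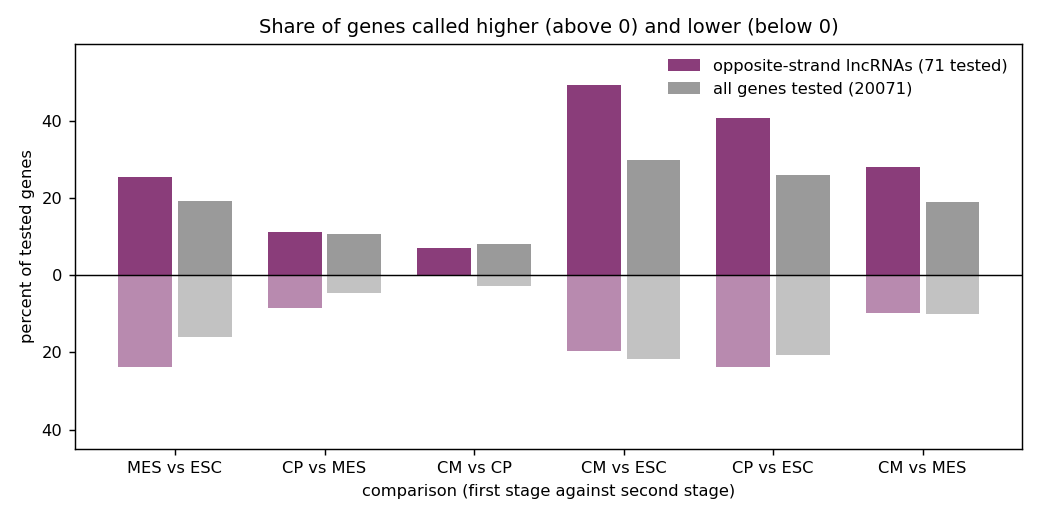
The plot of shares called gives the percent of tested genes called higher (above 0) and lower (below 0) for the 71 tested opposite-strand lncRNAs and for all 20071 genes, in each of the 6 comparisons. The widest gap is among genes higher in CM than in ESC, at 49.3% of the lncRNAs and 29.8% of all genes.

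Beside genes of developmental transcription factors, several head-to-head lncRNAs moved in the direction of their partner, though not always by the same fold. *Lhx1* encodes a LIM homeobox factor of the early mesoderm and the head organizer. *Lhx1os* (ENSMUSG00000087211, chromosome 11 from 84525660 to 84535831, plus strand) was at 0 and 0 TPM at ESC, 6.60 and 12.8 at MES, 3.95 and 2.48 at CP and 1.16 and 0.644 at CM, so it had no count in ESC and was read most in MES. *Lhx1*, whose 5′ end is 125 bases away, was at 0.265 and 0.0913 TPM at ESC, 38.7 and 79.9 at MES, 5.21 and 1.49 at CP and 2.24 and 0.662 at CM. Between ESC and MES the lncRNA rose at least 22.7-fold (edgeR adjusted p = 0.00028), and its partner rose 275-fold (log2 fold change 8.11 ± 0.83 SE, edgeR adjusted p = 2.57e-05). Both were lower in CM than in MES, *Lhx1os* by 11.9-fold (log2 fold change -3.57 ± 0.62 SE, edgeR adjusted p = 0.00128) and *Lhx1* by 46.0-fold (log2 fold change -5.52 ± 0.64 SE, edgeR adjusted p = 7.48e-05). The MES replicates differed for both genes, and the second was the higher for each. As *Lhx1* had fallen further than *Lhx1os*, the ratio of lncRNA to partner was higher in CP than in MES (2.80 ± 0.48 SE on the log2 scale, limma adjusted p = 0.00122). It was also higher in CM than in MES (2.29 ± 0.62 SE on the log2 scale, limma adjusted p = 0.00997), which was lost without MES replicate 2 (limma adjusted p = 0.0513) or CM replicate 2 (0.0861). The fall of *Lhx1os* already by CP, at a log2 fold change of -1.73, was lost without MES replicate 2 (log2 fold change -1.21), CP replicate 1 (-2.13) or CP replicate 2 (-1.41). It was also lost with DESeq2 (adjusted p = 0.2045).

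*Gata6* encodes a zinc finger factor of endoderm and heart. *Gata6os* (ENSMUSG00000097222, chromosome 18 from 10987944 to 11052567, minus strand) was at 0.533 and 0.368 TPM at ESC, 4.49 and 6.45 at MES, 16.1 and 18 at CP and 28.6 and 26.3 at CM. The groups did not overlap, and each stage was above the one before. *Gata6*, whose 5′ end is 503 bases away, was at 3.79 and 2.74 TPM at ESC, 36.4 and 44.2 at MES, 66.1 and 73.7 at CP and 88.3 and 95.8 at CM. From ESC to CM the lncRNA rose 44.3-fold (log2 fold change 5.47 ± 0.30 SE, edgeR adjusted p = 1.96e-07) and the partner 20.7-fold (log2 fold change 4.37 ± 0.15 SE, edgeR adjusted p = 1.93e-08). From MES to CM the lncRNA rose 4.31-fold (log2 fold change 2.11 ± 0.22 SE, edgeR adjusted p = 3.66e-05), whereas *Gata6*, at a log2 fold change of 0.96 ± 0.13 SE (edgeR adjusted p = 0.000161), was under a fold of 2. The ratio of lncRNA to partner changed over that span (1.14 ± 0.20 SE on the log2 scale, limma adjusted p = 0.000506). Endoderm markers, which summed to 1.68 to 1.95 TPM in ESC and to 510.3 to 849 TPM in CM, rose over the same stages, and their part in this result was not tested.

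*Dlx4* encodes a distal-less homeobox factor. *Dlx4os* (ENSMUSG00000086552, chromosome 11 from 95145052 to 95159047, plus strand) was at 0.324 and 0.224 TPM at ESC, 0.378 and 0.501 at MES, 0.383 and 0.650 at CP and 9.48 and 4.86 at CM. *Dlx4* was at 0.110 and 0.0569 TPM at ESC, 0.256 and 0.255 at MES, 0.519 and 0.794 at CP and 2.97 and 1.31 at CM. Both CM libraries stood above the other 6 for either gene, and CM replicate 1 was the higher for both. *Dlx4os* rose from CP to CM by 13.1-fold (log2 fold change 3.72 ± 0.56 SE, edgeR adjusted p = 0.00155) and *Dlx4* by 3.15-fold (log2 fold change 1.66 ± 0.53 SE, edgeR adjusted p = 0.0469). The call of *Dlx4* in this step was lost without any single library other than CM replicate 2. Its log2 fold change was then 0.82 (without CM replicate 1) to 1.95 (without CP replicate 2). It was also lost with DESeq2 (adjusted p = 0.251), the libraries of the 2 stages alone (edgeR adjusted p = 0.107), no filter (0.0636) and the replicate block (0.0625). *Dlx4os* was 1 of the 5 members called in that last step. Its ratio to *Dlx4* rose there (2.03 ± 0.60 SE on the log2 scale, limma adjusted p = 0.048). That change was lost without any single library, with no weights (limma adjusted p = 0.115) and with the replicate block (0.0563).

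A further 3 pairs with such partners fell outside the rule on named genes by their level and were chosen after their values were seen. *Wt1*, the gene of a zinc finger factor of kidney and epicardium, has its 5′ end 19 bases from that of *Wt1os* (ENSMUSG00000074987, chromosome 2 from 105076538 to 105126510, minus strand). *Wt1os* was at 2.06 and 2.36 TPM at ESC, 0 and 0.0498 at MES, 0.355 and 0.259 at CP and 1.31 and 1.13 at CM. *Wt1* was at 23.2 and 24.2 TPM at ESC, 1.35 and 1.35 at MES, 6.89 and 9.64 at CP and 34.2 and 19.0 at CM. Both genes were high in ESC, lowest in MES and higher again in CM. The lncRNA had 101 counts in ESC and 1 in MES, a 96.5-fold (95% counting interval 16.9 to 3850.0) fall (edgeR adjusted p = 2.70e-05), and *Wt1* fell by 20.3-fold (log2 fold change -4.34 ± 0.35 SE, edgeR adjusted p = 5.24e-06). From MES to CM the rise of the lncRNA was 45.9-fold (95% counting interval 7.85 to 1850.0) (edgeR adjusted p = 0.000283) and that of *Wt1* 17.1-fold (log2 fold change 4.10 ± 0.35 SE, edgeR adjusted p = 1.23e-05). Such intervals cover counting error only. Bounds against no count cover only the counting error of the stage with no count.

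*Foxl2os* (ENSMUSG00000097072, chromosome 9 from 98949781 to 98955299, minus strand), 11 bases from the forkhead gene *Foxl2* of the ovary, was at 0.163 and 0.168 TPM at ESC, 1.90 and 2.45 at MES, 1.92 and 2.02 at CP and 0.549 and 2.78 at CM. *Foxl2* was at 0.111 and 0.171 TPM at ESC, 1.03 and 1.66 at MES, 2.09 and 1.66 at CP and 0.559 and 5.24 at CM. Both were above ESC in MES, the lncRNA by 10.9-fold (log2 fold change 3.45 ± 0.74 SE, edgeR adjusted p = 0.00294) and the partner by 7.94-fold (log2 fold change 2.99 ± 1.10 SE, edgeR adjusted p = 0.0398), and CM replicate 2 was the higher CM library for both. The call of *Foxl2* was lost without either ESC library (edgeR adjusted p = 0.164 and 0.122), either MES library (0.0666 and 0.152) or either CP library (0.0537 and 0.0532). *Six3os1* (ENSMUSG00000093460, chromosome 17 from 85600651 to 85618398, minus strand) overlaps *Six3*, a homeobox gene of forebrain and eye, and was at 0.0151 and 0 TPM at ESC, 0.229 and 0.403 at MES, 0.822 and 0.346 at CP and 1.50 and 2.42 at CM with *Six3* at 0.0330 and 0.0341 TPM at ESC, 0.346 and 0.765 at MES, 0.624 and 0.238 at CP and 0.891 and 1.32 at CM. It was higher in CM than in MES by 5.20-fold (log2 fold change 2.38 ± 0.47 SE, edgeR adjusted p = 0.00205), when *Six3*, at a log2 fold change of 0.75 ± 0.51 SE (edgeR adjusted p = 0.247), was not called.

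Partners with other roles gave further pairs in which both genes moved the same way. *Ptgs2*, the gene of the inducible cyclooxygenase, and *Has2*, the gene of a hyaluronan synthase that the early heart needs for its cushions, were also taken outside the rule. *Ptgs2os* (ENSMUSG00000097028, chromosome 1 from 150074873 to 150099963, minus strand) was at 0 and 0.0429 TPM at ESC, 0.290 and 0.144 at MES, 0.735 and 1.35 at CP and 1.03 and 1.04 at CM. *Ptgs2* was at 0.943 and 0.731 TPM at ESC, 2.65 and 3.69 at MES, 41.1 and 54.9 at CP and 34.0 and 43.5 at CM. All 4 libraries of CP and CM were above all of ESC and MES for both genes. Against the single count in ESC, *Ptgs2os* was 42.0-fold (95% counting interval 7.14 to 1700.0) higher in CM and *Ptgs2* was higher by 33.7-fold (log2 fold change 5.07 ± 0.23 SE, edgeR adjusted p = 6.71e-08). *Has2os* (ENSMUSG00000086541, chromosome 15 from 56689944 to 56778399, plus strand) was at 0.332 and 0.457 TPM at ESC, 3.09 and 3.71 at MES, 3.78 and 3.72 at CP and 4.22 and 3.31 at CM. *Has2* was at 5.01 and 5.53 TPM at ESC, 169.8 and 157 at MES, 191 and 211 at CP and 47.5 and 86.9 at CM. The lncRNA rose from ESC to MES by 7.25-fold (log2 fold change 2.86 ± 0.46 SE, edgeR adjusted p = 0.000536) and stayed there, whereas *Has2* rose by 26.8-fold (log2 fold change 4.74 ± 0.23 SE, edgeR adjusted p = 1.71e-07) and was lower again in CM than in CP, by 3.19-fold (log2 fold change -1.67 ± 0.18 SE, edgeR adjusted p = 0.000369). The ratio of *Has2os* to *Has2* rose in that last step (1.63 ± 0.39 SE on the log2 scale, limma adjusted p = 0.0177). This change of the ratio was lost without CP replicate 1 (limma adjusted p = 0.0683), CP replicate 2 (0.0922) or CM replicate 1 (0.122) and with no weights (0.0744).

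*Nphs1* encodes nephrin, known from the filtration slit of the kidney. *Nphs1os* (ENSMUSG00000087009, chromosome 7 from 30462164 to 30465591, minus strand) was at 30.1 and 30.0 TPM at ESC, 0 and 0 at MES, 0 and 0 at CP and 0 and 0.336 at CM. *Nphs1* was at 81.4 and 80.5 TPM at ESC, 0 and 0.220 at MES, 0.0962 and 0.0327 at CP and 0.306 and 0.577 at CM. ESC held nearly all reads of either gene. *Nphs1os* was at least 140.0-fold lower in MES than in ESC (edgeR adjusted p = 1.24e-05), and *Nphs1* fell by 821-fold (log2 fold change -9.68 ± 0.36 SE, edgeR adjusted p = 4.94e-08). Among the 597 exon bases that the pair shares, reads were separated by strand.

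*Ttc39aos1* (ENSMUSG00000085873, chromosome 4 from 109403794 to 109406155, minus strand) was at 1.68 and 1.52 TPM at ESC, 7.81 and 8.50 at MES, 10.1 and 9.58 at CP and 10.1 and 12.6 at CM and its partner *Ttc39a*, a gene of tetratricopeptide repeats, at 0.880 and 1.67 TPM at ESC, 7.01 and 5.86 at MES, 7.53 and 6.09 at CP and 6.23 and 6.73 at CM. They rose together from ESC to MES, by 4.36-fold (log2 fold change 2.12 ± 0.35 SE, edgeR adjusted p = 0.000606) and 4.38-fold (log2 fold change 2.13 ± 0.30 SE, edgeR adjusted p = 0.000224), and the lncRNA was the higher of the pair in the mean of every stage. *Mypopos* (ENSMUSG00000086533, chromosome 7 from 18993234 to 19001222, minus strand), at 1.21 and 1.79 TPM at ESC, 4.44 and 5.01 at MES, 6.19 and 6.38 at CP and 5.06 and 8.86 at CM, overlaps *Mypop*, which encodes a Myb-related factor and was at 2.44 and 3.22 TPM at ESC, 6.71 and 6.20 at MES, 6.79 and 6.60 at CP and 11 and 9.14 at CM. Between ESC and CM the lncRNA rose 3.37-fold (log2 fold change 1.75 ± 0.31 SE, edgeR adjusted p = 0.000589) and *Mypop* 2.65-fold (log2 fold change 1.40 ± 0.26 SE, edgeR adjusted p = 0.0008).

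*N4bp2os* (ENSMUSG00000106978, chromosome 5 from 65760991 to 65764379, minus strand) was at 1.10 and 0.712 TPM at ESC, 3.61 and 3.03 at MES, 6.58 and 7.70 at CP and 8.06 and 7.66 at CM and *N4bp2*, which encodes a protein with a nuclease domain, at 28.5 and 29.8 TPM at ESC, 74.4 and 85.7 at MES, 79.7 and 87.8 at CP and 57.6 and 69.6 at CM. Both rose from ESC to MES, the lncRNA by 3.14-fold (log2 fold change 1.65 ± 0.33 SE, edgeR adjusted p = 0.00206) and the partner by 2.37-fold (log2 fold change 1.24 ± 0.09 SE, edgeR adjusted p = 1.90e-06). Later they parted, since *N4bp2os* was higher in CM than in ESC by 6.34-fold (log2 fold change 2.66 ± 0.32 SE, edgeR adjusted p = 4.12e-05) and *N4bp2*, at a log2 fold change of 0.68 ± 0.09 SE (edgeR adjusted p = 6.03e-05), was under a fold of 2. The ratio changed over that span (1.98 ± 0.38 SE on the log2 scale, limma adjusted p = 0.0003). *Phf2os1* (ENSMUSG00000086889, chromosome 13 from 48871112 to 48875460, plus strand), 7 bases from the histone demethylase gene *Phf2*, was at 0.361 and 2.61 TPM at ESC, 5.89 and 5.44 at MES, 6.82 and 10.9 at CP and 6.50 and 13.5 at CM. *Phf2* was at 10.6 and 10.8 TPM at ESC, 25.5 and 28 at MES, 48.2 and 51.8 at CP and 67.8 and 73.2 at CM. *Phf2* rose from ESC to CM by 4.84-fold (log2 fold change 2.27 ± 0.09 SE, edgeR adjusted p = 3.67e-08) and *Phf2os1* by 4.81-fold (log2 fold change 2.27 ± 0.68 SE, edgeR adjusted p = 0.0128), a call of the lncRNA that was lost without ESC replicate 1 (edgeR adjusted p = 0.0888) or CM replicate 2 (0.0594).

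*Etaa1os* and *Map2k3os*, whose windows are printed above, were pairs that fell. *Etaa1*, a gene of the replication stress response, was at 59.8 and 58.8 TPM at ESC, 46.3 and 47.3 at MES, 38.2 and 36.7 at CP and 29.7 and 31.8 at CM, and *Etaa1os* (ENSMUSG00000086468, chromosome 11 from 17953970 to 17959578, plus strand) at 6.94 and 6.73 TPM at ESC, 6.36 and 4.62 at MES, 3.22 and 3.03 at CP and 2.84 and 2.89 at CM. Both CP and both CM libraries lay below all ESC and MES libraries for the 2 genes. From ESC to CM the lncRNA fell by 3.21-fold (log2 fold change -1.68 ± 0.37 SE, edgeR adjusted p = 0.00232) and the partner by 2.62-fold (log2 fold change -1.39 ± 0.09 SE, edgeR adjusted p = 7.15e-07), with no change of the ratio that passed the test (-0.27 ± 0.39 SE on the log2 scale, limma adjusted p = 0.576). *Map2k3*, the gene of a kinase upstream of p38, was at 55.4 and 55.5 TPM at ESC, 29.4 and 29.7 at MES, 35.5 and 38.6 at CP and 52.6 and 59.7 at CM, and *Map2k3os* (ENSMUSG00000042549, chromosome 11 from 60920917 to 60931867, minus strand) at 11.6 and 11.4 TPM at ESC, 3.90 and 3.23 at MES, 2.14 and 3.35 at CP and 3.60 and 5.74 at CM. Both fell from ESC to MES, the lncRNA by 3.71-fold (log2 fold change -1.89 ± 0.32 SE, edgeR adjusted p = 0.00072) and the partner by 2.17-fold (log2 fold change -1.12 ± 0.09 SE, edgeR adjusted p = 6.81e-06). In CM the partner, at a log2 fold change of -0.42 ± 0.09 SE (edgeR adjusted p = 0.00203) from ESC, was under a fold of 2, while the lncRNA was still lower by 3.36-fold (log2 fold change -1.75 ± 0.31 SE, edgeR adjusted p = 0.000652). The ratio had changed (-1.33 ± 0.30 SE on the log2 scale, limma adjusted p = 0.00132).

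In other pairs the lncRNA was called over a span in which its partner was not. *Brip1* encodes a DNA helicase that works with BRCA1. *Brip1os* (ENSMUSG00000085208, chromosome 11 from 86201370 to 86304443, plus strand) was at 12.8 and 12.2 TPM at ESC, 30.7 and 33.3 at MES, 39.1 and 45.5 at CP and 35.9 and 36.5 at CM, and *Brip1*, whose 5′ end is 177 bases away, at 16.6 and 17.2 TPM at ESC, 15.0 and 13.7 at MES, 16.6 and 16.6 at CP and 11.8 and 16.8 at CM. The lncRNA rose from ESC to MES by 2.21-fold (log2 fold change 1.15 ± 0.10 SE, edgeR adjusted p = 1.24e-05) and was highest in CP, whereas *Brip1* changed by a log2 fold change of -0.45 ± 0.13 SE (edgeR adjusted p = 0.0154). *Brip1os* was below its partner in ESC and above it at each later stage, and the ratio from ESC to CM changed (1.80 ± 0.18 SE on the log2 scale, limma adjusted p = 3.99e-07).

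*Tmem147os* (ENSMUSG00000097320, chromosome 7 from 30729579 to 30745929, plus strand) starts 39 bases from *Tmem147*, a gene of the translocon of the endoplasmic reticulum. The lncRNA was at 7.37 and 7.09 TPM at ESC, 20.4 and 23.1 at MES, 24.9 and 27.3 at CP and 35.1 and 32.4 at CM and rose from ESC to CM by 3.45-fold (log2 fold change 1.79 ± 0.20 SE, edgeR adjusted p = 2.44e-05), with no overlap of ESC and the later stages. *Tmem147* was at 84.9 and 77.6 TPM at ESC, 104 and 102 at MES, 119 and 135 at CP and 166 and 161 at CM, and its change of a log2 fold change of 0.57 ± 0.12 SE (edgeR adjusted p = 0.00168) was under a fold of 2. The symbol *Tmem147os* stands for 2 genes in the files, and the other (ENSMUSG00000109224) was not tested.

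*H3f3aos* (ENSMUSG00000073485, chromosome 1 from 180813776 to 180816859, plus strand) lies beside *H3f3a*, which encodes a histone of the H3.3 type and was at 462 and 445 TPM at ESC, 486 and 528 at MES, 505 and 520.1 at CP and 478 and 440.2 at CM. The lncRNA was at 0.946 and 1.53 TPM at ESC, 1.86 and 2.53 at MES, 5.09 and 6.39 at CP and 6.98 and 8.63 at CM and rose from ESC to CM by 4.63-fold (log2 fold change 2.21 ± 0.31 SE, edgeR adjusted p = 0.000121), when *H3f3a* was at a log2 fold change of -0.42 ± 0.10 SE (edgeR adjusted p = 0.00419). Its peak was 1.52% of the peak of its partner.

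*Sp3os* (ENSMUSG00000063714, chromosome 2 from 72979424 to 72988677, plus strand), beside the Sp family factor gene *Sp3*, was at 9.88 and 10.2 TPM at ESC, 5.87 and 7.01 at MES, 11.7 and 16 at CP and 15.0 and 16.6 at CM and lowest in MES. It rose from MES to CM by 2.09-fold (log2 fold change 1.06 ± 0.28 SE, edgeR adjusted p = 0.00892), a call lost without MES replicate 1 (log2 fold change 0.99) and with DESeq2 (adjusted p = 0.0501). *Sp3* was at 121 and 123 TPM at ESC, 105 and 108 at MES, 107 and 104 at CP and 137 and 112 at CM. *Ino80dos* (ENSMUSG00000084799, chromosome 1 from 63113078 to 63158290, plus strand), beside a subunit gene of the INO80 chromatin remodeller, was at 7.18 and 9.62 TPM at ESC, 4.15 and 4.85 at MES, 7.0 and 6.01 at CP and 10.1 and 14.1 at CM. It too was lowest in MES and rose from MES to CM by 2.28-fold (log2 fold change 1.19 ± 0.24 SE, edgeR adjusted p = 0.00221), while *Ino80d* was at 45.0 and 46.8 TPM at ESC, 37.5 and 38.8 at MES, 42.4 and 45.7 at CP and 46.1 and 48.6 at CM. Its fall from ESC to MES, at a log2 fold change of -1.11, came under a fold of 2 without ESC replicate 2, at -0.90.

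*Rab10* and *Rab26* encode small GTPases of vesicle traffic, and both have a lncRNA that overlaps the gene. *Rab10os* (ENSMUSG00000079179, chromosome 12 from 3235504 to 3250377, plus strand) was at 18.3 and 16 TPM at ESC, 8.39 and 10.5 at MES, 10.4 and 9.15 at CP and 13.7 and 14.2 at CM, highest in ESC, and *Rab10* at 118 and 118 TPM at ESC, 195 and 183 at MES, 189.9 and 189.8 at CP and 159 and 185 at CM, lowest in ESC. The lncRNA fell from ESC to CP by 2.27-fold (log2 fold change -1.18 ± 0.15 SE, edgeR adjusted p = 7.74e-05), with *Rab10* at a log2 fold change of 0.32 ± 0.08 SE (edgeR adjusted p = 0.00601), and the ratio changed (-1.50 ± 0.17 SE on the log2 scale, limma adjusted p = 1.42e-06). *Rab26os* (ENSMUSG00000093565, chromosome 17 from 24528248 to 24528744, plus strand) was at 17.7 and 15.3 TPM at ESC, 24.5 and 22.6 at MES, 7.69 and 12.2 at CP and 11 and 14.9 at CM, above *Rab26* in every library, which was at 2.52 and 2.02 TPM at ESC, 1.62 and 1.61 at MES, 0.967 and 1.21 at CP and 1.92 and 1.58 at CM. The fall of *Rab26os* from MES to CP, 2.64-fold (log2 fold change -1.40 ± 0.32 SE, edgeR adjusted p = 0.00713), was lost without MES replicate 1 (edgeR adjusted p = 0.0514) or CP replicate 1 (0.0622). From ESC to CP both genes were called lower, *Rab26os* by 2.15-fold (log2 fold change -1.10 ± 0.32 SE, edgeR adjusted p = 0.0114) and *Rab26* by 2.68-fold (log2 fold change -1.42 ± 0.35 SE, edgeR adjusted p = 0.00516). The call of *Rab26os* came under a fold of 2 without ESC replicate 1 (log2 fold change -0.96) or CP replicate 1 (-0.83). The same held with scaling by library totals (-0.96). With DESeq2 the calls of both *Rab26os* (adjusted p = 0.0679) and *Rab26* (0.0546) were lost.

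*Zfp335os* (ENSMUSG00000085436, chromosome 2 from 164911354 to 164919953, plus strand), beside a zinc finger gene, was at 8.90 and 9.64 TPM at ESC, 10.04 and 8.02 at MES, 5.84 and 9.51 at CP and 2.70 and 7.76 at CM with *Zfp335* at 35.8 and 35.0 TPM at ESC, 35.1 and 39.4 at MES, 39.4 and 36.1 at CP and 38.2 and 44.9 at CM. It was lower in CM than in ESC by 2.46-fold (log2 fold change -1.30 ± 0.42 SE, edgeR adjusted p = 0.0179), a call that was lost without ESC replicate 1 (edgeR adjusted p = 0.0589), ESC replicate 2 (0.0758) or CM replicate 1 (0.0607) and with scaling by library totals (0.0504). *B9d1os* (ENSMUSG00000060808, chromosome 11 from 61504386 to 61505059, minus strand), whose window is printed above and which was named after its values were seen, was at 6.41 and 6.90 TPM at ESC, 0.933 and 1.55 at MES, 3.78 and 1.93 at CP and 3.0 and 1.33 at CM. *B9d1*, a gene of the base of the cilium, was at 32.6 and 29.9 TPM at ESC, 22.6 and 24.5 at MES, 23.8 and 17.5 at CP and 22.4 and 28.3 at CM. The lncRNA fell from ESC to MES by 6.06-fold (log2 fold change -2.60 ± 0.58 SE, edgeR adjusted p = 0.00379) and *B9d1* was at a log2 fold change of -0.62 ± 0.19 SE (edgeR adjusted p = 0.0198). The ratio changed in that step (-1.91 ± 0.56 SE on the log2 scale, limma adjusted p = 0.0132), but not without ESC replicate 2 (limma adjusted p = 0.0769), MES replicate 1 (0.129) or MES replicate 2 (0.0763).

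**Figure D3:**
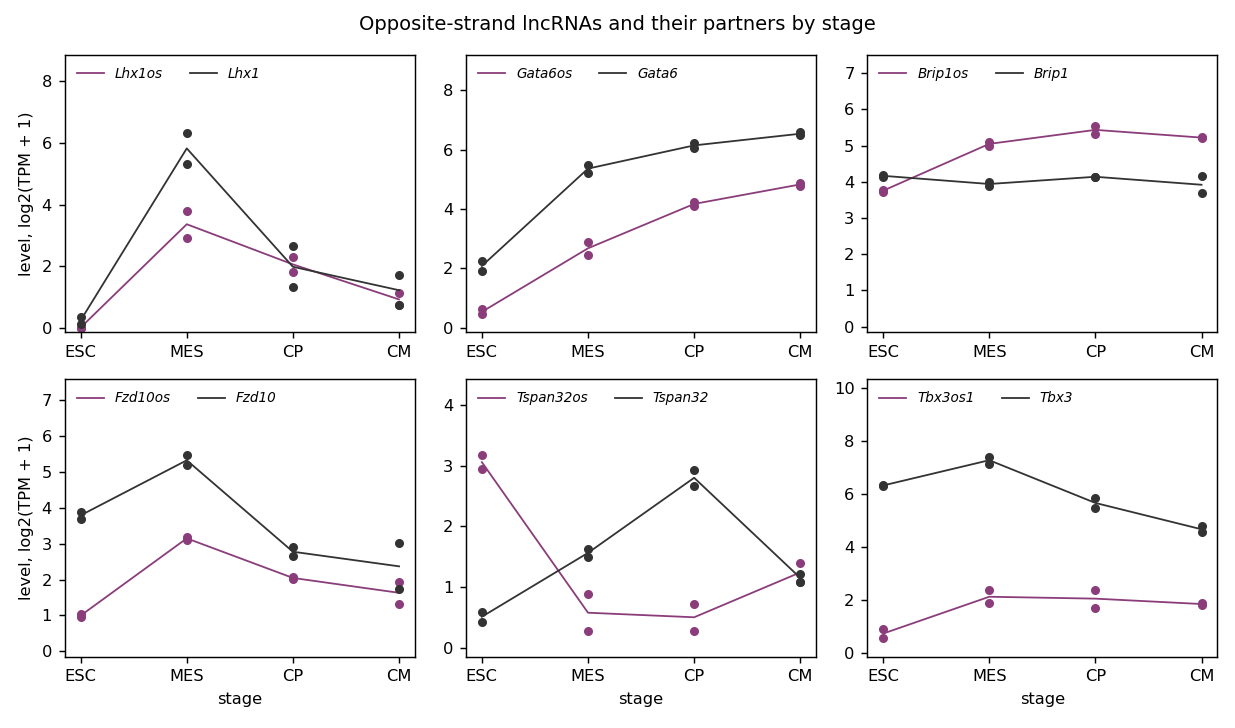
The plot of pairs by stage gives log2(TPM + 1) of the lncRNA (purple) and of the partner (black) in ESC, MES, CP and CM, with a point for each library and lines through the stage means, in 6 panels with their own vertical scales. *Lhx1os* and *Gata6os* run with their partners, *Brip1os* rises while *Brip1* does not, and *Fzd10os* and *Fzd10* both peak in MES. The lines of *Tspan32os* and *Tspan32* cross. *Tbx3os1* lies below *Tbx3* throughout and ends above its ESC level, whereas *Tbx3* ends below its own.

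In 12 pairs the lncRNA and its partner were called in opposite directions in at least 1 comparison. No such count was made for other opposite-strand pairs, whose shares in single comparisons are given further below. *Tspan32* encodes a tetraspanin of blood cells. *Tspan32os* (ENSMUSG00000052281, chromosome 7 from 142988969 to 143008033, minus strand) was at 6.69 and 8.04 TPM at ESC, 0.211 and 0.838 at MES, 0.213 and 0.652 at CP and 1.63 and 1.13 at CM. *Tspan32* was at 0.346 and 0.507 TPM at ESC, 1.81 and 2.11 at MES, 5.38 and 6.63 at CP and 1.33 and 1.12 at CM. The lncRNA was highest in ESC and the partner lowest there, with no overlap between ESC and CP for either. From ESC to CP the lncRNA fell by 20.8-fold (log2 fold change -4.38 ± 0.61 SE, edgeR adjusted p = 0.000137), the partner rose 10.8-fold (log2 fold change 3.44 ± 0.30 SE, edgeR adjusted p = 5.63e-06), and the ratio changed (-7.70 ± 0.66 SE on the log2 scale, limma adjusted p = 9.92e-08). The blood markers were at their highest in CP too, and their part in the rise of *Tspan32* was not tested.

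*Tbx3* encodes a T-box factor of pluripotent cells and of the cardiac conduction system. *Tbx3os1* (ENSMUSG00000087516, chromosome 5 from 119570130 to 119671365, minus strand) was at 0.454 and 0.881 TPM at ESC, 4.17 and 2.63 at MES, 4.22 and 2.25 at CP and 2.68 and 2.48 at CM. *Tbx3* was at 78.2 and 78.8 TPM at ESC, 168 and 139.5 at MES, 56.9 and 42.8 at CP and 22.3 and 26.4 at CM. Both were above ESC in MES, the lncRNA by 4.40-fold (log2 fold change 2.14 ± 0.48 SE, edgeR adjusted p = 0.00382) and *Tbx3* by a log2 fold change of 0.76 ± 0.15 SE (edgeR adjusted p = 0.00171), under a fold of 2. Then *Tbx3* fell below its ESC level while the lncRNA did not, so that from ESC to CM *Tbx3* fell by 4.38-fold (log2 fold change -2.13 ± 0.16 SE, edgeR adjusted p = 1.51e-06) and *Tbx3os1* rose 2.86-fold (log2 fold change 1.51 ± 0.49 SE, edgeR adjusted p = 0.019). That call of the lncRNA was lost without ESC replicate 1 (edgeR adjusted p = 0.124), whereas the ratio changed at 3.67 ± 0.44 SE on the log2 scale, limma adjusted p = 2.48e-06.

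*Fzd10*, a gene of a Wnt receptor, was at 11.8 and 13.8 TPM at ESC, 42.8 and 35.3 at MES, 6.46 and 5.26 at CP and 2.30 and 7.05 at CM, and *Fzd10os* (ENSMUSG00000072591, chromosome 5 from 128579106 to 128600693, minus strand), with a start 151 bases away, at 1.06 and 0.931 TPM at ESC, 8.15 and 7.55 at MES, 3.19 and 3.06 at CP and 1.49 and 2.85 at CM. Both peaked in MES, where the lncRNA had risen 6.78-fold (log2 fold change 2.76 ± 0.31 SE, edgeR adjusted p = 5.42e-05) and the partner 2.64-fold (log2 fold change 1.40 ± 0.32 SE, edgeR adjusted p = 0.00418). Both fell from MES to CP, the partner by 7.42-fold (log2 fold change -2.89 ± 0.35 SE, edgeR adjusted p = 0.000265) and the lncRNA by 2.80-fold (log2 fold change -1.48 ± 0.28 SE, edgeR adjusted p = 0.003). In CP *Fzd10os* was thus above its ESC level, by 2.42-fold (log2 fold change 1.28 ± 0.33 SE, edgeR adjusted p = 0.0062), and *Fzd10* below its own, by 2.81-fold (log2 fold change -1.49 ± 0.35 SE, edgeR adjusted p = 0.00356).

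*Smc2* and *Atad3a*, genes of the condensin complex and of a mitochondrial membrane ATPase, were abundant partners that fell. *Smc2* was at 168 and 192 TPM at ESC, 171 and 163 at MES, 135 and 142 at CP and 86.1 and 103 at CM, and *Smc2os* (ENSMUSG00000085763, chromosome 4 from 52430285 to 52438965, minus strand) at 0 and 0.594 TPM at ESC, 1.67 and 0.999 at MES, 3.05 and 4.15 at CP and 4.85 and 4.31 at CM. From ESC to CM *Smc2* fell by 2.59-fold (log2 fold change -1.37 ± 0.09 SE, edgeR adjusted p = 7.54e-07). *Smc2os*, on 2 counts in ESC, was 13.5-fold (95% counting interval 3.39 to 117) higher in counts over library totals. Its edgeR log2 fold change was 3.39 (edgeR adjusted p = 0.00433). *Atad3a* was at 111 and 108 TPM at ESC, 97.1 and 87.9 at MES, 56.3 and 58.8 at CP and 51.0 and 56.3 at CM, and *Atad3aos* (ENSMUSG00000054514, chromosome 4 from 155761178 to 155769264, plus strand) at 0.348 and 0.480 TPM at ESC, 0.271 and 1.48 at MES, 0.685 and 1.26 at CP and 3.13 and 1.60 at CM. *Atad3a* fell by 2.77-fold (log2 fold change -1.47 ± 0.09 SE, edgeR adjusted p = 5.02e-07). The rise of *Atad3aos*, 4.20-fold (log2 fold change 2.07 ± 0.77 SE, edgeR adjusted p = 0.0337), was lost without either ESC library (log2 fold change 1.89 and 2.31), either CP library (2.06 and 2.06) or CM replicate 1 (1.39). It was also lost with DESeq2 (adjusted p = 0.14). *Zbtb11*, a zinc finger gene, was at 41.1 and 45.3 TPM at ESC, 23.1 and 22.8 at MES, 21.5 and 20.9 at CP and 26.4 and 27.8 at CM, and *Zbtb11os1* (ENSMUSG00000102101, chromosome 16 from 55973268 to 55974617, minus strand) at 0.933 and 1.93 TPM at ESC, 2.33 and 2.62 at MES, 2.99 and 2.88 at CP and 4.20 and 6.49 at CM. *Zbtb11* fell from ESC to CM by 2.16-fold (log2 fold change -1.11 ± 0.09 SE, edgeR adjusted p = 3.54e-06) and *Zbtb11os1* rose 2.72-fold (log2 fold change 1.44 ± 0.42 SE, edgeR adjusted p = 0.0113). The change of *Zbtb11* came under a fold of 2 when libraries were scaled by their totals, at a log2 fold change of -0.89. The call of the lncRNA was lost without ESC replicate 1 (log2 fold change 1.04) or CM replicate 2 (1.20) and with DESeq2 (adjusted p = 0.0979).

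In another 4 pairs of this kind the lncRNA starts 36224 to 270334 bases from the 5′ end of the partner. *Lrrc75aos2* (ENSMUSG00000085762, chromosome 11 from 62605766 to 62607748, plus strand) was at 15.0 and 13.2 TPM at ESC, 12.0 and 8.66 at MES, 4.67 and 4.94 at CP and 6.43 and 4.39 at CM, and *Lrrc75a*, a gene of leucine-rich repeats, at 8.53 and 8.46 TPM at ESC, 21.9 and 21.8 at MES, 21.1 and 18.7 at CP and 30.5 and 25.9 at CM. Over the course from ESC to CM the lncRNA fell by 3.47-fold (log2 fold change -1.80 ± 0.32 SE, edgeR adjusted p = 0.000603) and the partner rose 2.46-fold (log2 fold change 1.30 ± 0.19 SE, edgeR adjusted p = 0.000197), and the groups did not overlap for either. *Nr6a1* encodes an orphan nuclear receptor that represses pluripotency genes and was at 37.7 and 40.1 TPM at ESC, 67.9 and 81.7 at MES, 47.1 and 46.0 at CP and 37.7 and 31.9 at CM, highest in MES. *Nr6a1os* (ENSMUSG00000085201, chromosome 2 from 38823257 to 38852370, plus strand) was at 1.35 and 0.929 TPM at ESC, 0 and 0 at MES, 3.44 and 2.43 at CP and 10.6 and 9.53 at CM, with no count in MES. From MES to CM the lncRNA was at least 24.2-fold higher (edgeR adjusted p = 0.000114) and *Nr6a1* fell by 2.50-fold (log2 fold change -1.32 ± 0.13 SE, edgeR adjusted p = 3.25e-05).

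*Ptprtos* (ENSMUSG00000084919, chromosome 2 from 162390813 to 162393945, plus strand), within the receptor phosphatase gene *Ptprt*, was at 4.0 and 5.31 TPM at ESC, 0.665 and 0 at MES, 0 and 0 at CP and 0 and 0 at CM. *Ptprt* was at 1.13 and 1.14 TPM at ESC, 1.74 and 3.27 at MES, 1.82 and 2.21 at CP and 2.28 and 7.04 at CM. From ESC to CM the lncRNA was at least 10.7-fold lower (edgeR adjusted p = 0.00143) and the partner rose 2.94-fold (log2 fold change 1.56 ± 0.44 SE, edgeR adjusted p = 0.00955), with CM replicate 2 well above CM replicate 1. The rise of *Ptprt* was lost without CM replicate 2 (edgeR adjusted p = 0.0758), ESC replicate 1 (0.0519) or ESC replicate 2 (0.053). *Atcayos* (ENSMUSG00000085779, chromosome 10 from 81194609 to 81210877, plus strand) overlaps *Atcay*, the gene of the brain protein caytaxin, and was at 0.123 and 0.212 TPM at ESC, 0 and 0 at MES, 2.18 and 1.93 at CP and 1.76 and 1.59 at CM with *Atcay* at 2.30 and 1.95 TPM at ESC, 0 and 0.261 at MES, 0.212 and 0.108 at CP and 0.304 and 2.02 at CM. From ESC to CP the lncRNA rose 9.29-fold (log2 fold change 3.22 ± 0.46 SE, edgeR adjusted p = 0.000272) and the partner fell by 16.4-fold (log2 fold change -4.04 ± 0.92 SE, edgeR adjusted p = 0.00311). From ESC to MES both fell, *Atcay* by 18.1-fold (log2 fold change -4.18 ± 0.95 SE, edgeR adjusted p = 0.00405) and *Atcayos*, on 8 counts in ESC and none in MES, at least 2.55-fold (edgeR adjusted p = 0.00876). This bound takes the 8 counts as exact, so the fall of *Atcayos* may be smaller.

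Over the 67 pairs in which both genes were tested (66 partners), calls in the same direction outnumbered calls in opposite directions. From ESC to MES, 18 pairs were called the same way and 2 the opposite way, in 15 only the lncRNA was called, in 11 only the partner and in 21 neither. Between ESC and CM 16 were called the same way and 9 the opposite way, in 21 only the lncRNA was called, in 7 only the partner and in 14 neither. Of the 894 other pairs of a lncRNA and a protein coding gene on the opposite strand, 22.1% were called the same way from ESC to CM and 11.4% the opposite way, against 23.9% and 13.4% of the 67, so these pairs are near the rest. From ESC to MES the shares were 26.9% and 2.99% of the 67, against 13.9% and 5.15% of the others. Over all 6 comparisons, 29 pairs had a call in the same direction, 12 a call in opposite directions and 3 had both. These counts over all comparisons were not made for the 894 other pairs, so whether they are unusual was not tested.

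By arrangement, 11 of the 39 head-to-head pairs were called the same way and none the opposite way from ESC to MES, while 7 and 2 of the 25 other overlapping pairs were. Over that step 14.4% of the 485 other head-to-head pairs were called the same way and 1.03% the opposite way. Of the 409 other overlapping pairs, 54 were called the same way and 41 the opposite way. From ESC to CM the head-to-head pairs had 10 and 4, and the other overlapping pairs 6 and 5. Among the 485 other head-to-head pairs 28.2% were called the same way and 4.74% the opposite way from ESC to CM, and among the 409 other overlapping ones 14.9% and 19.3%. No test was made of the difference between the arrangements.

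**Figure D4:**
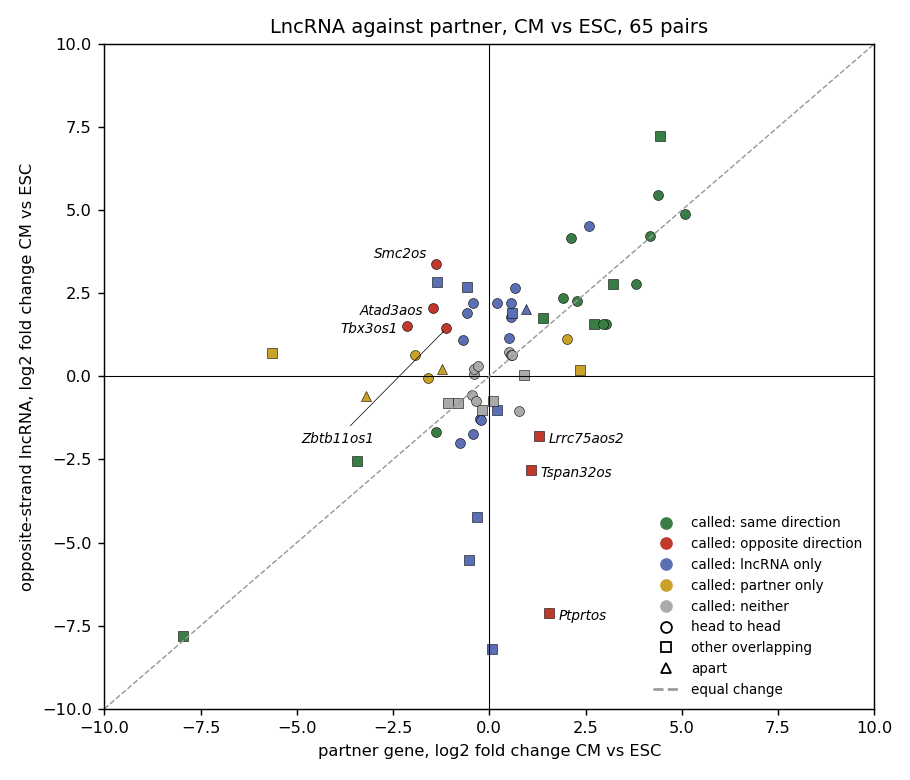
The plot of the lncRNA against its partner shows the fitted log2 fold change from ESC to CM of the partner (horizontal) and of the lncRNA (vertical) for 65 pairs, with colours for the calls, shapes for the arrangement and a dashed line where both change alike. The 7 red points of pairs called in opposite directions are named, and 16 green points were called in the same direction.

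Whether the lncRNA changed otherwise than its partner was tested on their ratio within each library, with limma over all 961 opposite-strand pairs. Between ESC and CM the ratio changed in 38 of the 67 pairs, 56.7% against 56.6% of all pairs, up in 23 and down in 15. From ESC to MES it changed in 24 (35.8% against 37.3%), and from ESC to CP in 33 (49.3% against 50.7%). For MES to CP the number was 12 (17.9% against 15.6%), for CP to CM 8 (11.9% against 7.70%) and for MES to CM 30 (44.8% against 38.2%). The named pairs thus parted about as often as opposite-strand pairs did in general. From MES to CM, 17 of 39 head-to-head pairs (43.6%) had a changed ratio, up in 15 of them, against 176 of the 485 other head-to-head pairs (36.3%), up in 150. Without single libraries the number for MES to CP fell to 2 (MES replicate 1), 3 (MES replicate 2), 6 (CP replicate 1) or 4 (CP replicate 2). That for CP to CM became 2 (CP replicate 1 or CP replicate 2) or 13 (CM replicate 1), and that for MES to CM 15 (MES replicate 1) or 18 (MES replicate 2).

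At its highest stage the lncRNA was mostly below the highest stage of its partner, with a median of 13.5% on the TPM scale, which takes gene length into account. The median was 10.8% in head-to-head pairs and 37.1% in other overlapping pairs, and 25 lncRNAs were under 10%. In 13 pairs the lncRNA peaked above its partner, among them *Epb41l4aos*, *Oip5os1*, *Brip1os*, *Rab26os*, *Ttc39aos1*, *Tspan32os*, *Dlx4os*, *Prox2os*, *Six3os1*, *Foxd2os* and *Tnfsf13os*. The lncRNA and its partner had their highest mean at the same stage in 27 of the 67 pairs (40.3%), against 40.4% of the other pairs.

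Of the 71 tested members 12 were not called in any comparison. Besides *Oip5os1*, those with the highest levels were *Prox2os*, *Appbp2os*, *Phtf1os* and *Ppp1r18os*. *Prox2os* (ENSMUSG00000093629, chromosome 12 from 85086374 to 85088228, plus strand) was at 9.21 and 8.86 TPM at ESC, 16.6 and 16.4 at MES, 18.7 and 19.7 at CP and 10.7 and 17.8 at CM, above its homeobox partner *Prox2* at 0.365 and 0.518 TPM at ESC, 1.17 and 1.11 at MES, 1.56 and 2.41 at CP and 2.82 and 3.36 at CM, and from ESC to CM it changed by a log2 fold change of 0.20 ± 0.25 SE (edgeR adjusted p = 0.49) when *Prox2* rose 5.10-fold (log2 fold change 2.35 ± 0.37 SE, edgeR adjusted p = 0.000269). *Appbp2os* (ENSMUSG00000085628, chromosome 11 from 85234775 to 85238304, plus strand) was at 5.93 and 5.23 TPM at ESC, 5.49 and 9.70 at MES, 7.0 and 9.65 at CP and 11.2 and 12.4 at CM, and *Appbp2*, which encodes a subunit that recruits substrates for ubiquitination, at 97.5 and 99.3 TPM at ESC, 233 and 216 at MES, 225 and 231 at CP and 202 and 188 at CM. *Phtf1os* (ENSMUSG00000089998, chromosome 3 from 103964536 to 103968581, minus strand) was at 1.20 and 1.75 TPM at ESC, 1.92 and 2.32 at MES, 2.2 and 3.05 at CP and 3.15 and 3.55 at CM with *Phtf1* at 13.6 and 15.3 TPM at ESC, 21.3 and 24.1 at MES, 29.8 and 32.7 at CP and 26.3 and 29.7 at CM, and from ESC to CM the lncRNA changed by a log2 fold change of 0.74 ± 0.30 SE (edgeR adjusted p = 0.0447). *Ppp1r18os* (ENSMUSG00000087443, chromosome 17 from 35860918 to 35866886, minus strand) was at 2.29 and 0.474 TPM at ESC, 1.34 and 1.86 at MES, 1.08 and 1.38 at CP and 2.84 and 3.15 at CM, and *Ppp1r18*, which encodes an actin-binding phosphatase subunit, at 24.7 and 24.4 TPM at ESC, 41.5 and 43.0 at MES, 58.3 and 50 at CP and 50.5 and 50.3 at CM. The others were *Ctcflos*, *Dhrs13os*, *Lef1os1*, *Rbm3os*, *Rsf1os2*, *Tomm6os* and *Zfp85os*. A p that misses the threshold at these counts does not show that a level stayed the same.

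The called members not given above had stage means of at most 5.92 TPM. Called higher only were *Banf2os*, *Ccdc142os*, *Fbxl12os*, *Fcnaos*, *Foxd2os*, *Hk1os*, *Irx3os*, *Junos*, *Man2c1os*, *Mkln1os*, *Stamos*, *Zeb2os* and *Zmiz1os1*, and called lower only were *Frs3os*, *Kank4os*, *Lrp8os2*, *Pmepa1os*, *Rbfaos* and *Tnfsf13os*. *Grip1os3*, *Srrm4os* and *Tmem51os1* were called in both directions. Of all 59 called members, 42 had at least 1 call that was kept under every alternative. Among the members named in this paragraph, every call of *Fcnaos*, *Foxd2os*, *Hk1os*, *Irx3os*, *Junos*, *Lrp8os2*, *Mkln1os*, *Pmepa1os*, *Tnfsf13os* and *Zeb2os* was lost without at least 1 library, and *Tmem51os1* also had no call kept under every alternative. *Banf2os*, with no count in ESC and MES, had a mean of 3.59 TPM in CP and 4.66 TPM in CM. *Kank4os* and *Frs3os* were highest in ESC, at 3.45 and 5.92 TPM. The ratio of *Irx3os* to *Irx3*, a head-to-head pair, fell from ESC to MES (-2.36 ± 0.53 SE on the log2 scale, limma adjusted p = 0.00215). From MES to CM that ratio rose (1.03 ± 0.40 SE on the log2 scale, limma adjusted p = 0.0493).

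Reads of a partner that are placed on the wrong strand would count for an overlapping lncRNA. In 52 pairs of an annotated lncRNA and an abundant gene (at least 20000 counts) that share at least 500 exon bases, the counts of the lncRNA had a median of 0.0663% of those of the gene, were under 0.1% in 31 pairs and reached 0 in the lowest. The highest share, 16.98%, was that of the member *Brip1os* against *Med13*, with which it shares 800 exon bases. The shared bases were 2.37% to 62.42% of the exons of the gene, with a median of 8.78%, and these shares of counts are not scaled for them. Among the tested members the level of the lncRNA at a single stage was as low as 0.066% of that of its partner on the TPM scale (*Rbfaos* in CM), apart from stages with no count, and the part of such reads in the members' counts was not tested.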

How the data were processed

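RNA of J1 mouse ESCs and of their MES, CP and CM derivatives (2 biological replicates each) gave 8 rRNA-depleted, strand-specific libraries that were read from both ends. Per the notes of the submitters, the authors trimmed reads with Trim Galore 0.6.6, aligned them to GRCm38 with HISAT2 2.2.1 and counted them per gene and strand with featureCounts 2.0.1, and used DESeq2 1.34.0 for their own comparisons. The authors deposited raw counts per gene as whole numbers. They also deposited TPM, which divide a count by the length of the gene and bring all libraries to the same total, and which recomputation from the counts matched within 4.35e-06. Gene positions came from GENCODE M21 (GRCm38), and all 279 members were found in it by identifier.

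Stages were compared with the quasi-likelihood F-test of edgeR 4.0.16 on the counts, scaled by TMM and filtered on low counts by stage, with all 8 libraries in 1 model (common dispersion 0.0163), so that each gene has 1 estimate of spread that every stage shares. The false discovery rate was controlled by the Benjamini-Hochberg procedure across 20071 genes, and each SE was derived from the fold change and its F statistic. The ratio of lncRNA to partner was tested with limma 3.58.1 on the difference of voom log2 values with combined weights, over 961 pairs. A stage with no count was given a floor of 3 counts over its 2 libraries, and the count of the other stage was taken as exact. Total counts per library ranged from 18046063 to 19728777. Alternatives were DESeq2 1.42.0, RLE scaling, library totals, no filter, a stricter filter, the libraries of the 2 stages alone, a replicate block, each library left out, and the ratio with no weights. Software was matplotlib 3.10.9, scipy 1.17.1, pandas 2.3.3 and numpy 2.4.6 in Python 3.11.15, and R 4.3.3.

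The members, lists and alternatives were chosen with earlier results of these data known. Genes named with values in each library are the 25 called members with the highest stage means, the 5 highest of the members called in none, and the 12 whose partner was called in the opposite direction, 36 in all, with their partners, of which 1 partner and its lncRNAs are not reported here. Wt1os, Foxl2os, Six3os1, Ptgs2os, Has2os, B9d1os and Cdr1os, and members given by name only, were chosen after their values were seen.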

Additional observations from a re-analysis of the deposited data

How the results depend on the processing

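The labels do not say whether same-numbered replicates were cultured together, and the main model had no replicate term. Deviations of same-numbered replicates correlated between stages by 0.0107 to 0.0748, which cannot show whether the samples were paired. With the replicate block, 34, 14, 5, 46, 47 and 27 members were called in MES vs ESC, CP vs MES, CM vs CP, CM vs ESC, CP vs ESC and CM vs MES, in place of 35, 14, 5, 49, 46 and 27. Of the 176 calls of members, 110 were kept under every alternative, none was reversed, 63 were lost without some library, 49 with DESeq2, 7 with the block, 7 with no filter, 7 with the libraries of the 2 stages alone, 5 with library totals and 1 with RLE scaling. For CM vs CP, 3 members were called with the libraries of the 2 stages alone and 2 with DESeq2, and the ratio changed in 3 pairs with no weights. Leaving out each library gave 27 to 43 calls for MES vs ESC, 8 to 17 for CP vs MES, 1 to 10 for CM vs CP, 42 to 55 for CM vs ESC, 41 to 54 for CP vs ESC and 19 to 28 for CM vs MES. The ratio then changed in 16 to 30, 2 to 14, 2 to 13, 31 to 44, 26 to 40 and 15 to 32 pairs in the same order. At a minimum of 0.1 TPM 195 members counted as expressed and at 5 TPM 33, and 65 had a read in all 8 libraries. With 2 libraries per stage and CM replicates that differ most, calls on few counts are the least certain, and the cause of the losses was not tested.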
